A study of Mus musculus with 14 samples.

Results

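The genes described here are 9 markers of cortical excitatory neurons: Nptx1, Fezf2, Rorb, Lamp5, Tbr1, Neurod2, Neurod6, Emx1 and Rasgrf2. They were matched by exact gene symbol in the authors' deposited table, which gave rows for 8 of the 9 among its 13130 genes. Emx1 was not analysed here. The table compares messenger RNA of the nucleus accumbens, in the ventral striatum, between 7 mice injected there with AAV-Cre and 7 mice injected with AAV-GFP. AAV is an adeno-associated virus. Cre removes DNA between loxP sites and green fluorescent protein (GFP) is the control cargo. All 14 mice were C57BL/6 and homozygous for loxP-flanked Tet1, so the GFP mice carry the modified alleles too. The tissue was collected at 4 weeks from the injection, with 1 library a mouse. The sources used here do not give the promoter driving Cre, the floxed exons or the age of the mice. The series title places the comparison in work on Tet1 and stress. Each gene has 1 fold change, 1 mean level over both groups and 1 test, so values per mouse, SDs within a group and the depth of each library cannot be given.

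Excitatory neurons of the cerebral cortex are glutamatergic projection neurons arranged in layers, and each layer expresses its own set of transcription factors. The projection neurons of the nucleus accumbens are instead GABAergic and arise from a different part of the embryonic forebrain. Genes such as Tbr1, Neurod6 and Fezf2 are therefore widely used to tell cortical from striatal tissue. TET1 oxidises 5-methylcytosine, which in mammals lies mostly where cytosine is followed by guanine (CpG).

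None of the 8 cortical markers differed between AAV-Cre and AAV-GFP past the threshold in the authors' deposited table. Their log2 fold changes (AAV-Cre minus AAV-GFP) ran from -0.86 for Neurod6 to 0.18 for Lamp5, with 6 of the 8 below 0. Their median log2 fold change was -0.44, beside 0.02 over all 13130 genes, and their mean weighted by the inverse squared standard error was -0.09. For 6 of the 8, the standard error of the fold change was above that of 95% of genes at the same mean level, and for Tbr1, Neurod2 and Neurod6 it came to about 1 on the log2 scale. Rorb had the smallest error of the 8, and Lamp5 the next.

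An adjusted p under 0.05 was reached by 0 of the 8 members and by 0 genes of the authors' deposited table, a background of 0%. At an unadjusted p under 0.05 the count of members was also 0, against 676 genes or 5.15% of the table. At an unadjusted p under 0.1 it was again 0, against 10.7%. The smallest unadjusted p among the members in the authors' deposited table was 0.170, for Nptx1. A log2 fold change below 0 was listed for 40.9% of all genes, against 6 of the 8 members. The adjusted p-values of the members lay between 0.921 and 0.998 (Benjamini-Hochberg adjustment over all genes, with limma's column names).

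Tet1 itself, the targeted gene, stood at a log2 fold change of -0.13 ± 0.11 (standard error), with an unadjusted p of 0.255, in the authors' deposited table. This value is per gene, not per exon, and covers all cells of the tissue, with or without virus. The sources used here do not say which exons were counted.

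**Figure D1:**
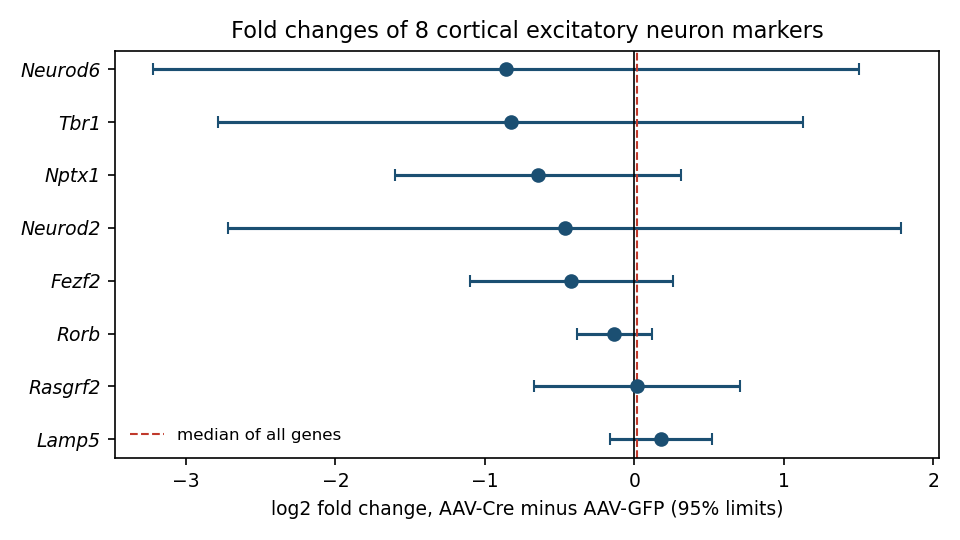
Log2 fold changes (AAV-Cre minus AAV-GFP, x axis) of the 8 cortical markers, 1 row a gene; points are the authors' values, bars the 95% limits derived from their t, and the dashed line is the median of all genes at 0.02. Every bar crosses 0, and the bars of Neurod6, Tbr1 and Neurod2 are the widest.

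The members include 5 transcription factor genes. Neurod6, a basic helix-loop-helix factor of differentiating and mature pyramidal neurons, had the lowest log2 fold change, -0.86 ± 1.11 (standard error) in the authors' deposited table, a difference of -44.9%. Its 95% limits ran from a log2 value of -3.22 (-89.3%) to 1.50 (183%). Only a difference of 5.14-fold or more would have reached an unadjusted p under 0.05 with this error.

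Neurod2, a factor of the same family that acts in cortical neuron differentiation and synapse maturation, stood at -0.46 ± 1.06 in the authors' deposited table (95% limits -2.72 to 1.79, unadjusted p = 0.667). Tbr1, a T-box factor of early-born and deep-layer corticothalamic neurons, stood at -0.83 ± 0.92 (limits -2.79 to 1.13, unadjusted p = 0.382) in the authors' deposited table. These 3 genes had the widest errors of the group, and none of their fold changes was as large as its own standard error.

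Fezf2 encodes a zinc finger factor that specifies deep-layer neurons projecting out of the cortex. Its log2 fold change was -0.42 ± 0.32 in the authors' deposited table, or -25.3%, with limits of -1.10 to 0.26 and an unadjusted p of 0.208. Rorb, an orphan nuclear receptor gene of the middle, thalamus-receiving layer, stood at -0.13 ± 0.12 (limits -0.38 to 0.12, unadjusted p = 0.277) in the authors' deposited table. Rorb thus had the narrowest limits of the 8, and a difference of 1.19-fold would have been enough to reach an unadjusted p under 0.05.

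The other 3 members act outside the nucleus. Nptx1 encodes a secreted neuronal pentraxin that clusters AMPA-type glutamate receptors at synapses. It stood at -0.65 ± 0.45 in the authors' deposited table, or -36.1%, with limits of -1.60 to 0.31. Lamp5, a brain member of the lysosome-associated membrane protein family used as a marker of upper layers and of some interneurons, was the highest of the 8 at 0.18 ± 0.16 in the authors' deposited table (limits -0.16 to 0.52, unadjusted p = 0.285). Rasgrf2, an exchange factor gene for Ras and an upper-layer marker, stood at 0.02 ± 0.32 in the authors' deposited table, with limits of -0.67 to 0.70. Minus the median of all genes, Rasgrf2 came to a log2 value of -0.002, so its sign depends on the centring.

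By layer, the 3 members used as upper or middle layer markers (Rorb, Lamp5 and Rasgrf2) lay between -0.13 and 0.18 on the log2 fold change scale in the authors' deposited table. The deep-layer factors Fezf2 and Tbr1 stood at -0.42 and -0.83. The general markers Nptx1, Neurod2 and Neurod6, which are not assigned to a layer here, lay between -0.86 and -0.46. The limits of these sets overlap, and differences between them were not tested. Such a test would need the covariance of the genes across mice. Among the other measured genes of the lists given below, the median was -0.01 for the deep-layer, -0.03 for the upper-layer and -0.21 for the general list. The medians of the deep-layer and upper-layer genes thus lay close together, but their ranges differed. Those deep-layer genes ran from -0.69 to 0.18 and the upper-layer genes from -0.16 to 0.07. A difference between these lists was not tested. In the weighted mean of -0.09, Rorb carries 52.2% of the weight and Lamp5 28.2%. In bulk tissue, fewer cells of a type and less RNA per cell cannot be told apart.

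The errors were compared with those of genes whose mean level lay within 0.5 on the log2 scale. By construction 5% of all genes (657 of 13129) exceed the 95th percentile of that comparison. Among the members, Tbr1 had a standard error 11.0 times the median of 2097 such genes and ranked 13 of all genes by this ratio. For Neurod2 the ratio was 8.90 (rank 21), for Neurod6 7.31 (rank 33), for Nptx1 7.12 (rank 36) and for Rasgrf2 5.10 (rank 104). Lamp5, at 2.48 times, was just inside the widest 5%, at the 96.5th percentile.

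Fezf2 (2.01 times, 91.9th percentile) and Rorb (1.55 times, 79.8th percentile) were not among the widest 5%. Fezf2 has the lowest mean level of the members, and the median error of genes at that level was 0.16, against 0.06 at the level of Nptx1. The same 6 members were wide when genes were matched on exonic length as well as level. For an unweighted comparison of 7 with 7 mice, the standard error of Tbr1 would correspond to an SD between mice of 1.72 on the log2 scale, or 3.30-fold. For Neurod6 it would be 2.07 (4.21-fold), and for Rorb 0.22 (1.16-fold). The sources used here do not say whether the authors' model weighted libraries. The 15.1 degrees of freedom that link t and p are more than 7 and 7 mice alone give. The errors therefore draw on other genes as well, and these SDs are not those of the mice alone.

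**Figure D2:**
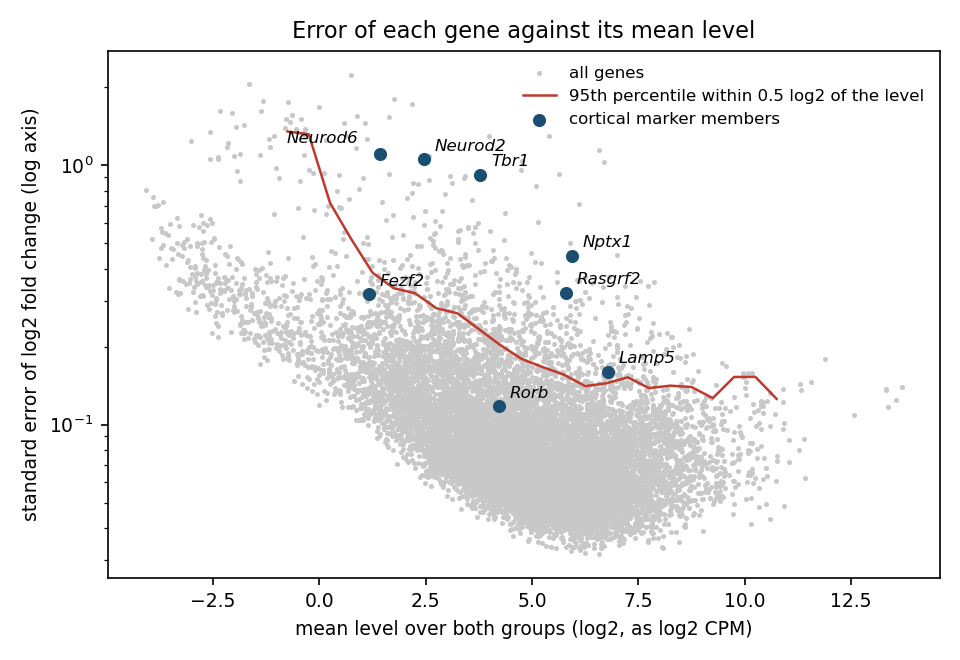
Standard error of the log2 fold change (y axis, log scale) against the mean level over both groups (x axis, log2) for all genes (grey) and the 8 members (dark points); the line is the 95th percentile of genes within 0.5 log2 of each level. Of the members, 6 lie above the line, Lamp5 just above it, and Fezf2 and Rorb lie below it.

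Levels were compared per kilobase of joined exons, taking the mean level as log2 CPM. Lamp5 had the highest level of the members, at 37.5 CPM per kb. Nptx1 followed at 11.7 CPM per kb and Rasgrf2 at 6.07 CPM per kb. Tbr1 (2.52 CPM per kb), Neurod2 (1.75), Rorb (1.70) and Neurod6 (1.25) came next, and Fezf2 was the lowest at 0.736 CPM per kb. The table gives no error for a mean level, so whether neighbours in this order differ beyond their spread was not tested.

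The median level of the 8 was 2.14 CPM per kb, beside 6.61 over all genes and 67.1 over 19 markers of striatal projection neurons. The opioid peptide gene Penk (784 CPM per kb) and the dopamine signalling gene Ppp1r1b (352, chosen after its value was seen) were among the striatal markers of highest level. The vesicular glutamate transporter gene Slc17a7, which defines cortical glutamatergic neurons, was present at 17.7 CPM per kb. A level in bulk tissue does not say which cells the RNA came from.

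**Figure D3:**
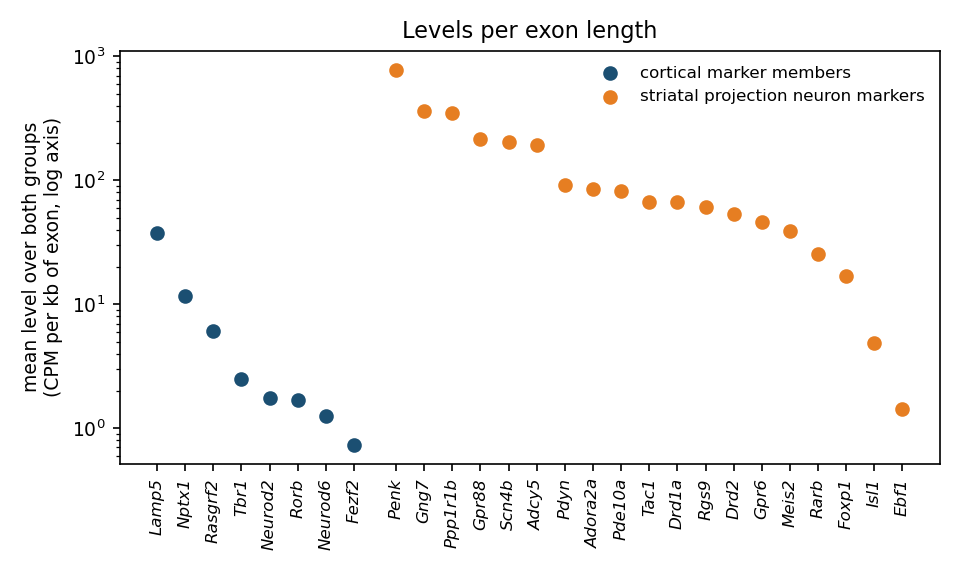
Mean level over both groups in CPM per kb of exon (y axis, log scale) for the 8 cortical markers (left) and 19 striatal projection neuron markers (right), 1 point a gene. Lamp5, at 37.5 CPM per kb, is the highest of the cortical markers and Fezf2, at 0.736, the lowest, and most striatal markers lie above Lamp5.

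All 8 genes are protein coding, and their positions are given on GRCm38 from GENCODE M21. Neurod6 (ENSMUSG00000037984.8) lies on chromosome 6, minus strand, from 55677822 to 55681263. Tbr1 (ENSMUSG00000035033.11) lies on the plus strand of chromosome 2 from 61802930 to 61814114, and Lamp5 (ENSMUSG00000027270.10) on the same strand of that chromosome from 136052239 to 136069917. Both Nptx1 (ENSMUSG00000025582.4, 119538719 to 119547753) and Neurod2 (ENSMUSG00000038255.6, 98325415 to 98329648) lie on the minus strand of chromosome 11. Fezf2 (ENSMUSG00000021743.5) lies on chromosome 14 from 12342094 to 12348189, Rorb (ENSMUSG00000036192.11) on chromosome 19 from 18930605 to 19111196 and Rasgrf2 (ENSMUSG00000021708.12) on chromosome 13 from 91880400 to 92131656, each on the minus strand.

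Because TET1 acts on methylated cytosine, CpG pairs were counted in the 250 bases before each RefSeq start site (GRCm38.p6), where 7 of the 8 members had an entry. Over 32851 start sites the median count was 6 CpG (quartiles 2 and 16), and 92.1% held at least 1. The sequences shown are those of the members with the widest and the narrowest error, with each CpG in capitals; both are written 5′ to 3′ on the minus strand.
Neurod6, chr6:55681264-55681513: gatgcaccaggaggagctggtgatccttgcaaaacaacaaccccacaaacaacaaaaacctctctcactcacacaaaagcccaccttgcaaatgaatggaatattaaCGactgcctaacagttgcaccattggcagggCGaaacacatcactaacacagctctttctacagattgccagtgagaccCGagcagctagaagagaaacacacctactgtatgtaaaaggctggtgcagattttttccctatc
Rorb, chr19:19111197-19111446: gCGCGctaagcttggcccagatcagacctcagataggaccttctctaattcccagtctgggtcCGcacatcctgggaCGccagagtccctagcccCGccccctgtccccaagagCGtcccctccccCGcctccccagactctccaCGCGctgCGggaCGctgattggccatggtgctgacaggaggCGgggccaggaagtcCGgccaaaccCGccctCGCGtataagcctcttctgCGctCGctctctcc

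The Neurod6 window held 3 CpG and the Rorb window 18. Tbr1 had 5, Neurod2 had 11, Fezf2 had 14 and Rasgrf2 had 22, while the first Lamp5 start along the gene had 3. A second Lamp5 start had 1 and a second Rorb start 4. The windows of Tbr1, of Fezf2 and of these second starts lie inside the GENCODE gene positions given above, not before them. The members thus spanned CpG-poor to CpG-rich starts. Methylation was not measured in these samples, and the counts say nothing about it.

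Other genes of the same cell types were taken from lists that overlap the members, and the members were left out. Of 36 further cortical genes in the general, upper-layer and deep-layer lists, 30 were measured: 20 had a log2 fold change below 0, the median was -0.04, and 0 had an unadjusted p under 0.05. Of these 30, 13 (43.3%) had an error in the widest 5%. In the general list the 7 measured genes had a median of -0.21, and 4 were wide. Slc17a7 stood at -0.82 ± 1.14 in the authors' deposited table, and its error was 17.9 times that of genes at its level, rank 2 of the whole table. The other named genes of that list were the transcription factor gene Mef2c (-0.21 ± 0.12), the synaptic vesicle gene Sv2b (-0.23 ± 0.23) and Arpp21 (0.13 ± 0.13) in the authors' deposited table.

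The deep-layer list had 13 measured genes, of which 6 were wide, and their median was -0.01. Nxph4 (-0.51 ± 0.34), Deptor (-0.30 ± 0.20), Foxp2 (0.18 ± 0.12) and Tle4 (0.11 ± 0.08) came first by p in the authors' deposited table. Foxp2 is also a gene of striatal neurons. Cplx3 (-0.69 ± 0.88) and Ctgf (-0.69 ± 0.58), markers of the deepest cortical layer that were chosen after their values were seen, were among the wide genes in the authors' deposited table. The upper-layer list had 10 measured genes between -0.16 and 0.07, with a median of -0.03, and 3 were wide. Inhba (-0.16 ± 0.18), Rspo1 (-0.07 ± 0.13), Pou3f2 (-0.04 ± 0.07) and Pou3f3 (0.07 ± 0.07) led it in the authors' deposited table. In neither list did a gene reach an unadjusted p under 0.05.

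Claustrum and endopiriform markers, of neurons that border the striatum, had 5 measured genes with a median of -0.18 (log2 fold change). The nuclear receptor gene Nr4a2 stood lowest at -1.06 ± 0.91 in the authors' deposited table, with an error 9.99 times that of genes at its level (rank 15). Ntng2 (-0.37 ± 0.41) was wide too, whereas Oprk1 (-0.18 ± 0.13) and Gnb4 (0.07 ± 0.10) were not, in the authors' deposited table. Genes of cortical projection neuron development had a median of -0.03 over 9 measured genes besides Tbr1, led by Nfib (-0.19 ± 0.17) in the authors' deposited table. Partners and inhibitors of the NEUROD factors, the other helix-loop-helix genes, had a median of 0.09 over 9 genes, with Id3 at 0.28 ± 0.14 in the authors' deposited table. Both lists had 0 genes at an unadjusted p under 0.05.

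Among the relatives of the members, 8 of 14 were measured. Their log2 fold changes had a median of 0.02, and 2 genes were wide. Those were the pentraxin genes Nptx2 (-0.11 ± 0.19) and Nptxr (-0.35 ± 0.27) in the authors' deposited table. Rasgrf1, the close relative of Rasgrf2, stood at 0.03 ± 0.07 in the authors' deposited table, with an error of 0.905 times that of genes at its level against 5.10 times for Rasgrf2. The relatives Rora (-0.17 ± 0.11), Lamp1 (0.11 ± 0.07), Lamp2 (0.09 ± 0.06) and Emx2 (0.01 ± 0.15) had no wide error in the authors' deposited table. Of the 2 pentraxin relatives and 4 AMPA receptor subunit genes (median -0.10), 1 of 6 reached an unadjusted p under 0.05, against 5.15% of all genes. It was the subunit gene Gria3, at -0.20 ± 0.08 (unadjusted p = 0.019, adjusted p = 0.919) in the authors' deposited table.

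**Figure D4:**
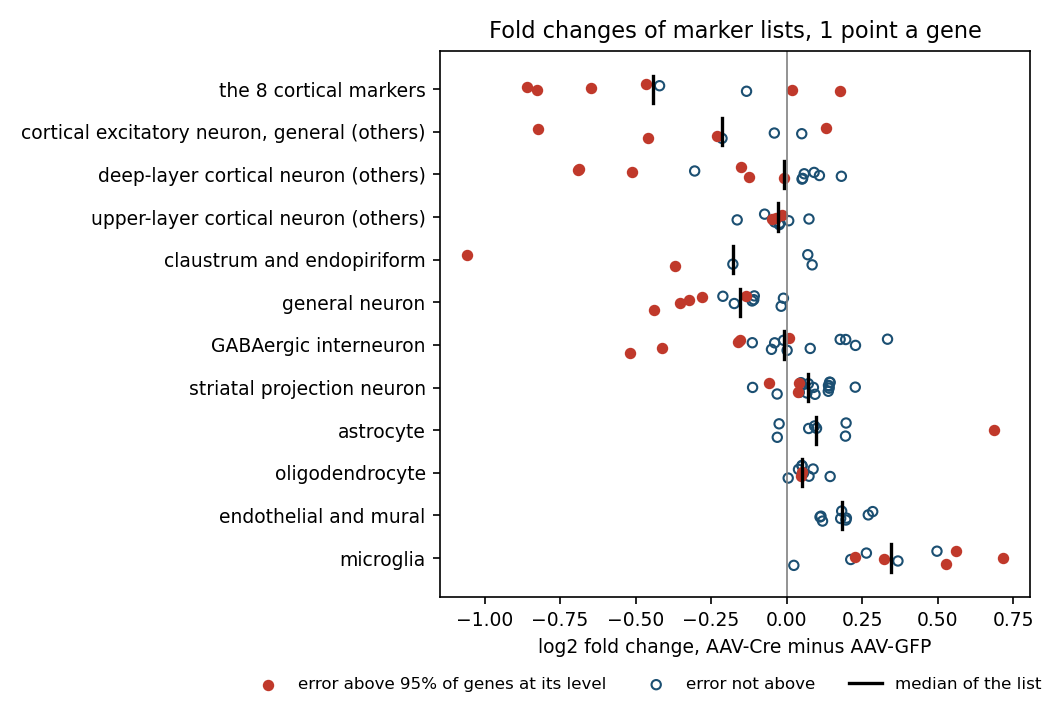
Log2 fold changes (AAV-Cre minus AAV-GFP, x axis) of the 8 cortical markers and of other marker lists (rows), 1 point a gene, with list medians as black bars; filled points have an error above that of 95% of genes at their level. Filled points in the cortical, claustrum and general neuron rows lie mostly below 0, and those of the microglia row above 0.

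Markers of other cells were read in the same way. Over all 13130 genes, 40.9% lay below 0. Of the 676 genes at an unadjusted p under 0.05 (5.15%), 606 lay above 0 and 70 below. An adjusted p under 0.05 was reached by 0 genes, and the smallest adjusted p of the microglia markers was 0.919. General neuron genes lay below 0 in 12 of 12. Their log2 fold changes had a median of -0.15, with 0 at an unadjusted p under 0.05 and 5 wide. Microglia markers lay above 0 in 10 of 10, with a median of 0.35, 5 at an unadjusted p under 0.05 and 5 wide. Endothelial and mural markers also lay above 0 in 9 of 9, with a median of 0.18, 2 at an unadjusted p under 0.05 and 0 wide. Astrocyte markers had a median of 0.10 over 8 genes (1 at an unadjusted p under 0.05, 1 wide) and oligodendrocyte markers 0.05 over 10 (0 and 2).

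Striatal projection neuron markers lay above 0 in 16 of 19. Their log2 fold changes had a median of 0.07, with 0 at an unadjusted p under 0.05 and 3 wide (15.8%). GABAergic interneuron markers had a median of -0.01 over 15 genes, 8 of them below 0. Dlx5 (0.20 ± 0.11), Dlx6 (0.18 ± 0.10), Nkx2-1 (0.33 ± 0.22) and Th (0.23 ± 0.16) came first by p among them in the authors' deposited table, and none of these 4 was wide. The 5 wide interneuron genes, chosen after their values were seen, were Pvalb (-0.52 ± 0.54), Vip (-0.41 ± 0.72), Dlx1 (-0.16 ± 0.21), Chat (-0.15 ± 0.21) and Lhx6 (0.01 ± 0.21) in the authors' deposited table. Septal, thalamic and hypothalamic markers had a median of 0.17 over 6 measured of 12, with 2 wide. Prkcd (0.33 ± 0.18), Trh (0.33 ± 0.20), Zic2 (0.22 ± 0.14) and Zic1 (0.13 ± 0.19) came first by p in the authors' deposited table. The wide genes, chosen after their values were seen, were Slc17a6, the glutamate transporter gene of subcortical neurons, at -0.12 ± 0.86, and Calb2 at -0.02 ± 0.51 in the authors' deposited table. Wide errors were thus found in several neuronal lists, in microglia and in some oligodendrocyte and astrocyte markers, but in no endothelial and mural marker. They are not a property of the 8 members alone. The part of any of these cell types in the members' values was not tested.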

How the data were processed

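Per the labels' protocols, Trizol RNA of each mouse went into a barcoded Illumina TruSeq mRNA library. The submitters' processing notes name TopHat2 2.0.9, Bowtie2 2.1.0, GRCm38 and mm10. The sources used here do not give the counting, normalization, low-value filter, model or library depth.

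Per the file headers, the deposited log2 columns hold a fold change and a mean level, with limma's names; the deposited score columns hold t and a log-odds value (not used). The deposited p-values are unadjusted and Benjamini-Hochberg adjusted, as recomputation over 13130 genes showed. The linear mean levels sum to 991364, as log2 CPM would. The direction rests on the table's name.

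Standard errors are fold change divided by t, and 95% limits use the 15.1 degrees of freedom that link t and p. Exonic lengths (13063 genes) and positions came from GENCODE M21. The arithmetic was tested on simulated data. P-values set each fold change against the spread between mice as the authors' model estimated it.

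The members and lists were chosen with earlier results of these data known. Named genes are the members, their relatives, Tet1 and up to 4 genes of smallest p per list; others are marked, and 1 relative is not reported here. Alternatives were other thresholds, centring, filtering, weighting, leaving out each member and, chosen after seeing the data, other matching of errors. Software was scipy 1.17.1, pandas 2.3.3, numpy 2.4.6 and matplotlib 3.10.9 under Python 3.11.15.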

Additional observations from a re-analysis of the deposited data

How the results depend on the processing

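No paired analysis was possible because the deposited comparison holds no values per mouse; for the same reason no mouse could be left out. The count of members past the threshold was 0 at an adjusted p under 0.1 and 0 when adjusted over the 12697 genes with a mean of at least 1 CPM (smallest adjusted p 0.928). Centring on the median of all genes left 7 of 8 members below 0 and turned Rasgrf2 to -0.00197 on the log2 scale. The cause is the subtraction of 0.02 from a value of 0.02. Centring on genes at the same level left 6 below 0. The median of the members, -0.44, ran from -0.46 to -0.42 with each member left out, and was -0.46 and -0.49 under the 2 centrings. The mean weighted by the inverse squared standard error was -0.09, with Rorb and Lamp5 carrying most of the weight. The count of wide members was 6 under each of the 4 other ways of matching. Depth per library is unknown, and an error near 1 on the log2 scale leaves differences under 3.89-fold for Tbr1 and 5.14-fold for Neurod6 short of an unadjusted p of 0.05.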

Other observations

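By a rule set after the values were seen, the 20 genes with the widest errors for their level were listed among those with a mean of at least 1 CPM. Of these, 15 had a log2 fold change above 0 and 5 below 0. The 15 included 10 genes with immunoglobulin symbols (Igh, Igk and Igj), at 1.76 to 3.99 in the authors' deposited table. Their standard errors were 0.71 to 1.56. Antibody-producing B lineage cells express such genes, and Igj encodes the joining chain rather than an immunoglobulin chain. The MHC class II invariant chain gene Cd74 stood at 2.53 ± 0.61. The rest of the 15 were the processed pseudogenes Gm15487, Rpl3-ps1 and BC002163, and Gm9825. The 5 were Slc17a7, Tbr1, Nr4a2, the processed pseudogene Gm6472 (-1.17 ± 2.24) and Slc30a3 (-0.48 ± 1.08) in the authors' deposited table. Slc30a3 encodes the zinc transporter of synaptic vesicles in cortical glutamatergic terminals.

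Over all 638 genes of at least 1 CPM with errors in the widest 5%, 400 (62.7%) had a log2 fold change below 0, against 40.7% of the 12697 genes of that level. No mouse can be assigned to these values, so whether the cortical and the immunoglobulin genes were wide because of the same mice was not tested.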
